A study of Mus musculus with 6 samples.

Results

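The genes described here encode the secreted part of the insulin-like growth factor (IGF) system, namely the ligands Igf1 and Igf2, the binding proteins Igfbp2 to Igfbp7, and the pappalysins Pappa and Pappa2. They were taken from the expression table by gene symbol, and all 10 were found among its 17001 rows. The table came from cultured calvarial preosteoblasts, precursors of bone-forming cells, of mice 3 days old. There were 3 control libraries of genotype NELL2 fx/fx and 3 libraries labelled cKO, of genotype Col1-cre; NELL2 fx/fx. Both alleles of Nell2 were floxed in every animal, controls included, and only the mice of the second group carried Cre, driven by a fragment of the mouse Col1a1 promoter. No group with Cre and unfloxed Nell2 was analysed here, so effects of Cre itself cannot be told apart from those of the deletion. All cells were grown in α-MEM with fetal bovine serum.

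IGF1 and IGF2 bind the receptor IGF1R and promote growth, survival and matrix production, and both are stored in bone matrix. Outside the cell most IGF is held by IGF-binding proteins, which prolong its life and limit its access to the receptor. Pappalysins are metalloproteinases that cut some of these binding proteins and so release IGF, and stanniocalcins block pappalysins.

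Each value is in FPKM, fragments scaled to transcript length and to the mapped fragments of the library, so that levels of different genes can be compared. Groups were compared as log2(FPKM + 1) with limma over the 11590 rows that had at least 1 FPKM in at least 3 libraries, and all 10 IGF genes passed that filter. A log2 difference below is the mean of the libraries labelled cKO minus the mean of the controls on this scale, where the change of a weakly expressed gene comes out smaller than it is. Adjusted p-values follow Benjamini and Hochberg over all rows tested. The labels do not say whether the libraries of a group came from separate animals or cultures, so p-values measure only the spread between these libraries. FPKM does not carry read numbers, so sequencing depth is unknown.

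The targeted gene did not separate the groups. Nell2 levels were 1.88 to 3.17 FPKM in the controls, whereas the cKO-labelled replicates 1, 2 and 3 held 5.64, 1.61 and 5.74 FPKM. Only replicate 2 of the labelled knockouts was below the controls, so every direction below refers to the labels. The osteoblast genes Col1a1 and Col1a2 ranked 1 and 2 of all rows, while 4 of 9 osteoblast lineage markers, Sp7, Alpl, Bglap and Ibsp, were lower in every library labelled cKO than in every control, as were 11.8% of all rows tested, and 1, Postn, was higher in every one, as were 6.51% of all rows. The FPKM sum of epithelial markers was 5.81 to 16.5 in the controls and 26.5 to 46.4 in the libraries labelled cKO. That difference lay mostly in Krt8 (means of 2.41 and 13.15 FPKM) and Krt18 (2.63 and 15.67 FPKM), and Krt8, Krt14 and Krt19 overlapped between the groups. The sum of adipocyte markers was 29.2 to 43.3 and 68.6 to 113 FPKM. Its difference lay mostly in Fabp4 (means of 18.7 and 62.8 FPKM). Lpl overlapped between the groups, and Adipoq, Plin1 and Cidec stayed near 0. Cartilage markers summed to 103 to 171 FPKM in the controls and 157 to 187 FPKM in the libraries labelled cKO. All 6 tested had a log2 difference above 0 (median 0.44). Of these, 3 (Acan, Comp and Col9a1) had an unadjusted p under 0.05, against 13.1% of all rows tested, and none an adjusted p under 0.05. The groups did not overlap for 1 of the 6, Col9a1. Y-linked Ddx3y measured 15.7 to 17.3 FPKM in control replicate 3 and in the libraries labelled cKO 1 and 3, and at most 0.06 FPKM in the others, so Y-linked expression was present in 1 control and in 2 libraries labelled cKO.

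No IGF gene differed between the groups at an adjusted p under 0.05, and neither did any other row, so the background share called was 0%. At an unadjusted p under 0.05, 2 of the 10 were called, Igfbp7 (higher in the libraries labelled cKO) and Pappa2 (lower), against 13.1% of all rows tested. The same genes were the ones whose groups did not overlap. For comparison, 6.51% of rows were higher in every library labelled cKO than in every control, and 11.8% were lower. Over the 10 genes, 6 log2 differences were above 0 and 4 below, with a median of 0.07, while the median over all rows tested was -0.02. The counts are near what the whole table gives, and the individual genes are described in order of their roles.

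**Figure D1:**
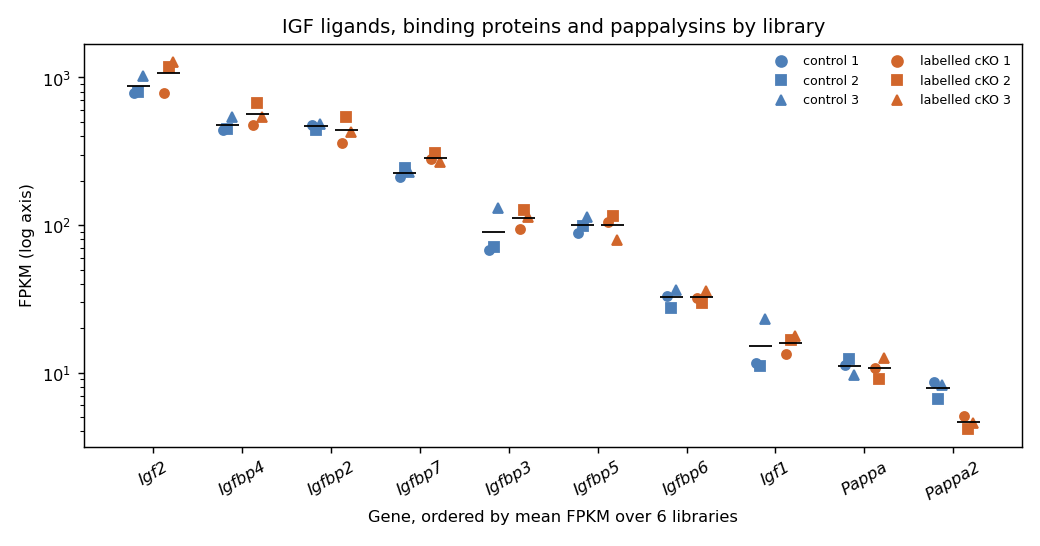
FPKM on a log axis of the IGF ligands, binding proteins and pappalysins in each of the 6 libraries, with controls and libraries labelled cKO in different colours. The genes spread from Igf2 at a mean of 972 FPKM to Pappa2 at 6.25 FPKM, and the groups are apart for Igfbp7 and Pappa2 only.

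Igf2, the fetal growth factor expressed from the paternal allele, was the most abundant of the 10 and ranked 101 of all rows. It lies on chromosome 7 of GRCm38 (142650766 to 142666816, minus strand, GENCODE M21). Controls 1, 2 and 3 held 783, 795 and 1029 FPKM, and the libraries labelled cKO 1, 2 and 3 held 789, 1170 and 1267 FPKM. The groups overlapped, because the library labelled cKO 1 sat with control replicates 1 and 2. The means were 869 ± 139 and 1075 ± 253 FPKM (SD, n = 3 each), a log2 difference of 0.29 (95% interval -0.18 to 0.75) with an adjusted p of 0.544 from limma. Without the library labelled cKO 1 the log2 difference was 0.50 (adjusted p = 0.114), and without the one labelled cKO 3 it was 0.16 (adjusted p = 0.859). The table gives 1 value per gene and does not separate the 4 starts that RefSeq lists for Igf2, nor the overlapping transcript Gm49394 on the same strand.

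Igf1, the ligand that growth hormone and parathyroid hormone regulate, was far less abundant (chromosome 10, 87858265 to 87937042, plus strand). It measured 11.6, 11.1 and 23.1 FPKM in the controls and 13.4, 16.7 and 17.7 FPKM in the libraries labelled cKO. Control replicate 3 was the highest of all 6 libraries, and the other 2 controls were the lowest. The means were 15.2 ± 6.77 and 15.9 ± 2.22 FPKM (SD, n = 3 each), and the log2 difference of 0.13 (95% interval -0.50 to 0.76) had an adjusted p of 0.854. Without control replicate 3 it was 0.45, without control replicate 1 it was -0.022 and without control replicate 2 it was -0.05, so the size of the value rested on control replicate 3 and its sign on control replicates 1 and 2. In every library Igf2 made up nearly all of the ligand FPKM, between 97.8% and 98.6% per library, and its ratio to Igf1 ranged from 44.6 in control replicate 3 to 71.7 in the library labelled cKO 3.

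Igfbp4 and Igfbp2 were the most abundant binding proteins. Igfbp4, which mostly restrains IGF action and is the main substrate of PAPPA, measured 440, 450 and 544 FPKM in the controls and 476, 674 and 540 FPKM in the libraries labelled cKO (chromosome 11, 99041244 to 99054392). The groups overlapped and the log2 difference was 0.23 with an adjusted p of 0.517, and 0.09 without the library labelled cKO 2. Igfbp2, a binding protein that prefers IGF2, measured 475, 442 and 487 FPKM in the controls and 360, 536 and 424 FPKM in the libraries labelled cKO (chromosome 1, 72824503 to 72852474). The libraries labelled cKO held both the lowest and the highest value, and the log2 difference of -0.11 had an adjusted p of 0.758. Igfbp4 exceeded Igfbp2 in 5 of 6 libraries and the ranges of these neighbours overlapped, so their order is not settled by these libraries.

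Igfbp3 and Igfbp5 had nearly the same mean, 101 and 100.2 FPKM, and each was the higher one in 3 of 6 libraries. Igfbp3, the chief carrier of IGF in serum and a PAPPA2 substrate, measured 68.3, 71.2 and 131 FPKM in the controls and 94.8, 126 and 114 FPKM in the libraries labelled cKO (chromosome 11, 7206086 to 7213923). Here again control replicate 3 lay above the other controls, and the groups overlapped. The log2 difference was 0.36 (adjusted p = 0.556 from limma), without control replicate 3 it was 0.66, and without control replicate 1 it was 0.20. Igfbp5, which binds bone matrix and is cut by both pappalysins, measured 88.6, 99.4 and 114 FPKM in the controls and 104, 115 and 79.9 FPKM in the libraries labelled cKO (chromosome 1, 72857932 to 72874884). Its log2 difference was -0.02 (95% interval -0.38 to 0.34). Igfbp5 and Igfbp2 are genomic neighbours, 5.46 kb apart on opposite strands, and their values were given separately by the table. Igfbp6, which binds IGF2 in preference to IGF1, was the least abundant binding protein at 27.4 to 36.3 FPKM over all 6 libraries, with a log2 difference of 0.02 (chromosome 15, 102144362 to 102149511).

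Igfbp7, a relative of the binding proteins that binds IGFs weakly and is found in vessel and matrix, was the only binding protein whose groups were apart. It lies on chromosome 5 (77349240 to 77408041, minus strand). It measured 211, 243 and 227 FPKM in the controls and 282, 309 and 267 FPKM in the libraries labelled cKO. The lowest library labelled cKO, replicate 3, was above the highest control, replicate 2. The means of 227 ± 16.3 and 286 ± 21.4 FPKM (SD, n = 3 each) gave a ratio of 1.26 and a log2 difference of 0.33 (standard error 0.08, 95% interval 0.13 to 0.53), with an adjusted p of 0.312. Igfbp7 is also an endothelial gene. The endothelial markers summed to 1.97 to 4.06 FPKM in the controls and 1.94 to 3.59 FPKM in the libraries labelled cKO, and 4 of the 6 (Pecam1, Kdr, Emcn and Tie1) were under 1 FPKM in every library. Its 3′ end overlaps Polr2b by 85 bases on the other strand, and Polr2b averaged 18.8 FPKM.

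The DNA upstream of Igfbp7 is shown as the promoter of the one binding protein gene whose groups were apart. It spans the 250 bases before the RefSeq start, chr5:77408046-77408295 on the minus strand of GRCm38.p6, and is printed in the direction of the gene. Capitals mark the word GGGCGG, the core of the GC box, on either strand.
Igfbp7: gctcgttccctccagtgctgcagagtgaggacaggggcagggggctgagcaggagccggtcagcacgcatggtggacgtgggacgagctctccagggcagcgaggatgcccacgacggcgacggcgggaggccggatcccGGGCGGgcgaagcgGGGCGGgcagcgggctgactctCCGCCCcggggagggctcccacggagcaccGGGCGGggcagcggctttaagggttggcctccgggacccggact
The window is 74% G or C, holds that word 4 times, and holds neither TATAAA nor CCAAT. Of 32851 RefSeq promoter windows of the same length, 32.7% held GGGCGG, 12.4% held TATAAA and 33.8% held CCAAT. These matches describe the letters and say nothing about which factors bind. No window is shown for Pappa2, because an exon of GENCODE M21 reaches into the 250 bases before its RefSeq start.

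The pappalysins had different patterns. Pappa, which cuts IGFBP4 and IGFBP5, measured 11.2, 12.4 and 9.59 FPKM in the controls and 10.8, 9.09 and 12.6 FPKM in the libraries labelled cKO (chromosome 4, 65124174 to 65357509). The groups overlapped, with a log2 difference of -0.03 (adjusted p = 0.933). Pappa2, which cuts IGFBP3 and IGFBP5, measured 8.68, 6.67 and 8.30 FPKM in the controls and 5.11, 4.19 and 4.57 FPKM in the libraries labelled cKO (chromosome 1, 158711727 to 158980490, minus strand). Its highest library labelled cKO, replicate 1, was below its lowest control, replicate 2. The means of 7.88 ± 1.07 and 4.62 ± 0.462 FPKM (SD, n = 3 each) gave a ratio of 0.586 and a log2 difference of -0.66 (standard error 0.11, 95% interval -0.91 to -0.40), with an adjusted p of 0.312. Beside both genes, the summed epithelial and adipocyte markers given above were also apart between the groups. Cartilage markers were on average higher in the libraries labelled cKO. Of the 9 osteoblast lineage markers, 7 had a log2 difference below 0 and 2 above, with a median of -0.21. The part of all these cell types in the Igfbp7 and Pappa2 values was not tested. A noncoding transcript, 1600012P17Rik, overlaps Pappa2 on the same strand and may share its reads. In bulk RNA, fewer cells expressing Pappa2 and less Pappa2 RNA per cell cannot be told apart.

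Pappa2 had an adjusted p under 0.05 only in the fit without the library labelled cKO 1. There its log2 difference was -0.72 and its adjusted p was 0.0364. Its unadjusted limma p was 0.000553 with all libraries and 0.000737 in that fit, so its own p did not fall. In that fit 2.9% of all 11522 rows tested were called, and 21.3% had an unadjusted p under 0.05. With all libraries these shares were 0% and 13.1%. With the Ddx3y level as a covariate, the log2 difference was -0.70 for Pappa2 and 0.36 for Igfbp7, each with an adjusted p of 0.457. Without control replicate 3, 13.8% of rows had an unadjusted p under 0.05, and Igf1, Igfbp3, Igfbp7 and Pappa2 were among them. The FPKM ratio of Pappa to Pappa2 was 1.29, 1.86 and 1.16 in the controls and 2.10, 2.17 and 2.76 in the libraries labelled cKO, with no overlap. Pappa2 alone was already apart between the groups, so the ratio is not a separate result.

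**Figure D2:**
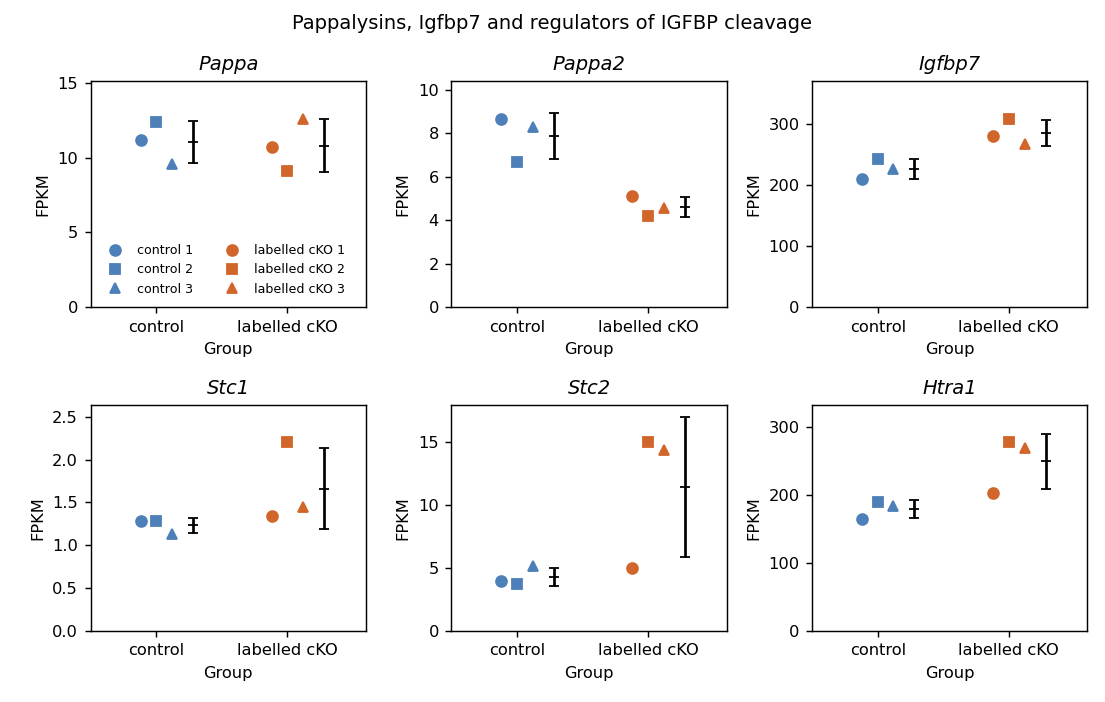
Pappa, Pappa2, Igfbp7, Stc1, Stc2 and Htra1 in FPKM for each library, with the mean and SD of each group (n = 3). The groups overlap for Stc2 and are apart for Igfbp7, Stc1 and Htra1, all higher in the libraries labelled cKO. The groups overlap for Pappa, while the Pappa2 values of 4.19 to 5.11 FPKM in the libraries labelled cKO lie below the 6.67 to 8.68 FPKM of the controls.

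**Figure D3:**
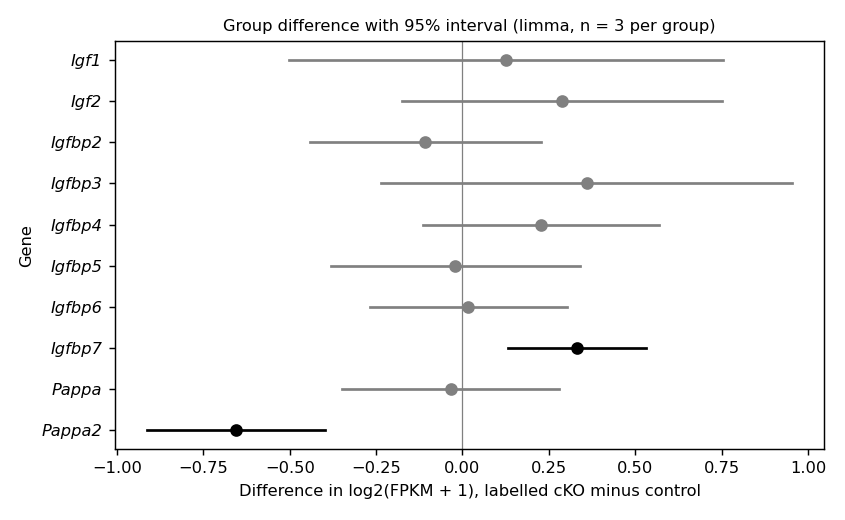
Log2 difference, libraries labelled cKO minus controls, on the log2(FPKM + 1) scale for each IGF gene, with its 95% interval from limma. The intervals of Igfbp7 and Pappa2 do not include 0 before adjustment, and no adjusted p is under 0.05.

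Several genes were highest in the same libraries regardless of group. Control replicate 3 and the libraries labelled cKO 2 and 3 were the highest 3 for Igf1, Igf2, Igfbp3 and Igfbp4, which puts control replicates 1 and 2 and the library labelled cKO 1 together. This grouping was noticed in the values, is not one of the study's groups, and was not tested. The ratio of the highest to the lowest library was 2.07 for Igf1, 1.62 for Igf2 and 1.91 for Igfbp3. Of the macrophage markers, 5 of 8 (Ptprc, Cd68, Adgre1, Lyz2 and C1qa) were highest in those 3 libraries, and all 8 summed to 36.2 to 94.1 FPKM in the controls and 49.5 to 75.6 FPKM in the libraries labelled cKO. Ptprc and Adgre1 were under 1 FPKM in every library. Endothelial markers were highest there in 4 of 6, at the low sums given above, and muscle markers in 3 of 7, with sums of 33.2 to 60.3 FPKM in the controls and 44.9 to 52.5 FPKM in the libraries labelled cKO. The part of macrophage, endothelial and muscle cells in the Igf1 and Igf2 values was not tested. Other lists mostly lacked this order, which held for 1 of 7 cartilage, 1 of 7 epithelial and 1 of 6 adipocyte markers. The order was also seen in 2 of 7 genes upstream of Igf1 (Socs2 and Cish) and 2 of 10 imprinted growth genes. Of the 6 IGFBP proteases and pappalysin inhibitors, 1 (Stc2) had it. It held for 0 of 9 osteoblast lineage markers and 0 of 9 IGF receptors and adaptors. The share of all rows with this order was not counted.

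**Figure D4:**
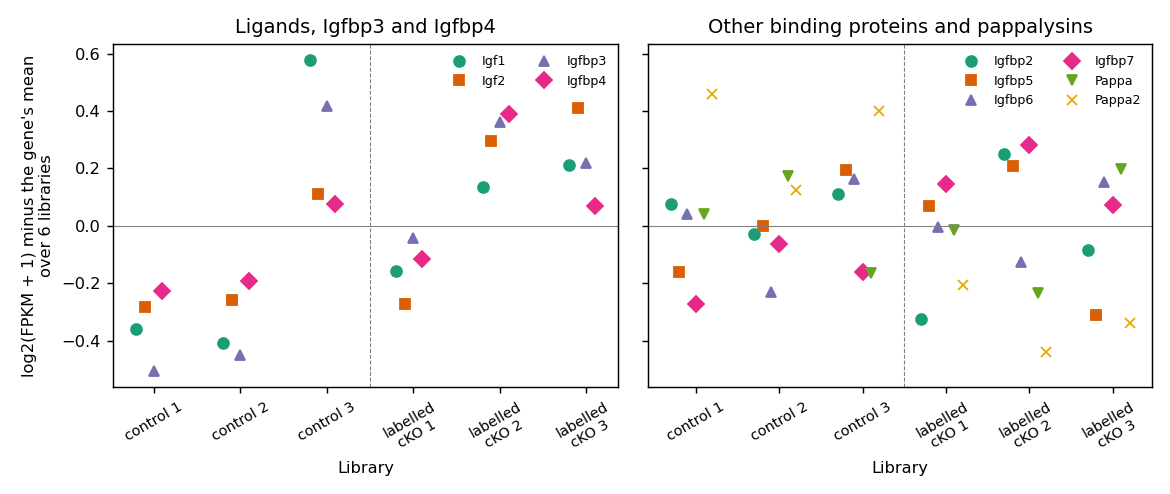
Log2(FPKM + 1) of each IGF gene in each library minus the gene's mean over all 6 libraries, ligands with Igfbp3 and Igfbp4 at left and the other genes at right. At left, control 3 and the libraries labelled cKO 2 and 3 lie above 0 for all 4 genes. At right, Pappa2 is above 0 in the controls and below 0 in the libraries labelled cKO.

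The summed level of the binding proteins overlapped between the groups. The 6 binding proteins summed to 1316, 1333 and 1539 FPKM in the controls and to 1348, 1790 and 1461 FPKM in the libraries labelled cKO. Relative to the ligand sum this was 1.66, 1.65 and 1.46 in the controls and 1.68, 1.51 and 1.14 in the libraries labelled cKO. The share of Igfbp2 in the binding protein sum was 31.7% to 36.1% in the controls and 26.7% to 29.9% in the libraries labelled cKO, without overlap, whereas its own level overlapped. The share of each other binding protein overlapped between the groups. A share also depends on the levels of the other binding proteins, so it is not a separate result on Igfbp2. Shares and sums were described only, with no test.

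**Figure D5:**
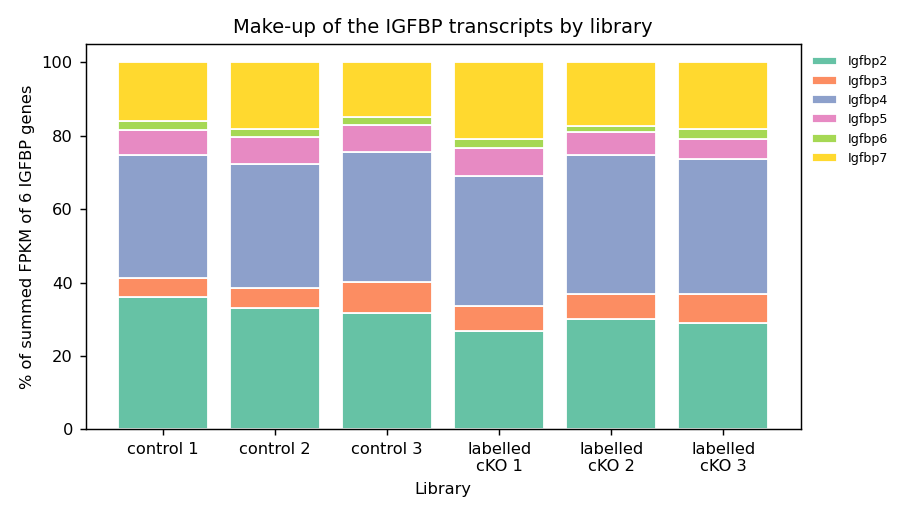
Percent of the summed binding protein FPKM held by each of Igfbp2 to Igfbp7 in each library. The Igfbp2 share is 31.7% to 36.1% in the controls and 26.7% to 29.9% in the libraries labelled cKO, and the other shares overlap.

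Among the IGF receptors and adaptors, all 9 genes listed passed the filter, 3 with a log2 difference above 0 and 6 below, and a median of -0.05. None passed at an adjusted p under 0.05, and 1 in each direction did at an unadjusted p under 0.05, Irs2 and Grb14, against 13.1% of all rows tested. The groups did not overlap for 2 genes that were higher in the libraries labelled cKO (Irs2 and Gab1) and 3 that were lower (Igf1r, Irs1 and Grb14), against 6.51% and 11.8% of all rows. Igf1r, the signalling receptor, measured 6.98 to 7.34 FPKM in the controls and 6.38 to 6.79 FPKM in the libraries labelled cKO, a log2 difference of -0.09. Igf2r, which clears IGF2, had a log2 difference of -0.14. Igfals, which forms the circulating ternary complex, was at most 0.31 FPKM.

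Among the proteases and pappalysin inhibitors, 5 of 6 listed genes passed the filter, 4 with a log2 difference above 0 and 1 below, and a median of 0.24. No gene passed at an adjusted p under 0.05, and 2 of the 5, Htra1 and Stc2, did at an unadjusted p under 0.05, against 13.1% of all rows tested. The groups did not overlap for 2 of the 5, Htra1 and Stc1, both higher in the libraries labelled cKO, against 6.51% of all rows. Stc1 was low, at 1.13 to 1.28 FPKM in the controls and 1.34 to 2.20 FPKM in the libraries labelled cKO. Its log2 difference was 0.24 (adjusted p = 0.442 from limma). Htra1, a serine protease that cuts IGFBP5, measured 164, 190 and 184 FPKM in the controls and 203, 278 and 269 FPKM in the libraries labelled cKO, a log2 difference of 0.46 with an adjusted p of 0.312. Stc2, an inhibitor of PAPPA, measured 3.98, 3.73 and 5.10 FPKM in the controls and 4.99, 14.9 and 14.3 FPKM in the libraries labelled cKO. The library labelled cKO 1 lay inside the control range and the other 2 well above it. The log2 difference was 1.12 (adjusted p = 0.315 from limma). Without the library labelled cKO 1 it was 1.58 (adjusted p = 0.0113), in a fit where 2.9% of all rows tested were called. It was 0.87 without the library labelled cKO 2 (adjusted p = 0.600) and 0.90 without cKO 3 (adjusted p = 0.681).

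Of the hormone receptors and transducers upstream of Igf1, all 7 passed the filter, 4 with a log2 difference above 0 and 3 below, none at an adjusted p under 0.05 and 2 in each direction at an unadjusted p under 0.05 in limma (Ghr and Socs2, Pth1r and Stat5b), against 13.1% of all rows tested. Ghr, the growth hormone receptor, measured 17.8, 15.4 and 18.2 FPKM in the controls and 18.4, 24.8 and 26.9 FPKM in the libraries labelled cKO, with a log2 difference of 0.41 (adjusted p = 0.325). Without the library labelled cKO 1, the log2 difference was 0.57 and the adjusted p was 0.0383, and 2.9% of all rows were called. The log2 difference was 0.36 without the library labelled cKO 2 (adjusted p = 0.606) and 0.30 without cKO 3 (adjusted p = 0.688). Socs2, a brake on growth hormone signalling, had a log2 difference of 0.36, and Pth1r, the parathyroid hormone receptor, of -0.24.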

How the data were processed

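Polyadenylated RNA was sequenced from 6 libraries, 3 control and 3 labelled cKO. The authors mapped paired-end reads with HISAT2 (GRCm38 per the submitters' processing notes) and deposited a table of FPKM values with gene symbols as rows and libraries as columns. The annotation and program used for FPKM are not given in the sources used here. Since FPKM is not a read number, tests made for counts were not used. Log2(FPKM + 1) was compared with limma 3.58.1 in R 4.3.3 (Benjamini-Hochberg adjustment, two-sided) over rows reaching 1 FPKM in 3 or more of the 6 libraries. The test was tested on simulated data. Gene coordinates came from GENCODE M21. The members, and the gene lists, were chosen with earlier results of these data known. The genes named are all members, Nell2, genes of the related and marker lists, and the 3 genes most correlated with each ligand. No block was used in the comparison, because the study's methods name none. Deviations from the group mean correlated at 0.03, -0.17 and 0.21 between libraries of the same number (1, 2 and 3). Between libraries of unlike number the correlations ranged from -0.27 to 0.28. Alternatives were a pseudocount of 0.1, no filter or 1 FPKM in every library, a variance trend, scaling to equal sums, quantile normalization, a Ddx3y covariate, a replicate block and each library left out. Strand use in counting is not given in the sources used here, so overlapping genes may share reads.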

Additional observations from a re-analysis of the deposited data

How the results depend on the processing

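No alternative other than leaving out a library moved the number of IGF genes with an adjusted p under 0.05 from 0. Leaving out 1 library gave 0 to 1 such genes, and 2 to 4 genes at an unadjusted p under 0.05, against 2 with all libraries. The 1 gene was Pappa2 without cKO replicate 1, where 2.9% of all rows were called. At an unadjusted limma p under 0.05, the 4 were Igf1, Igfbp3, Igfbp7 and Pappa2 without control replicate 3, against 13.8% of all rows. Without cKO replicate 1 they were Igf2, Igfbp4, Igfbp7 and Pappa2, against 21.3%. Without cKO replicate 2, 3 were called (Igfbp2, Igfbp7 and Pappa2), against 956 of 11491 rows. Without cKO replicate 3, 2 were called, against 852 of 11505 rows. With all libraries the share was 13.1%. Igf2, Igfbp3, Igfbp4, Igfbp7 and Pappa2 kept their sign in 14 of 14 alternatives. With a library left out, the log2 difference ranged from -0.047 to 0.45 for Igf1, 0.16 to 0.50 for Igf2, 0.20 to 0.66 for Igfbp3, 0.09 to 0.34 for Igfbp4, -0.26 to 0.028 for Igfbp2, -0.13 to 0.13 for Igfbp5, -0.094 to 0.10 for Igfbp6, -0.14 to 0.075 for Pappa, -0.049 to 0.54 for Cdkn1c, -0.13 to 0.29 for Mest and -0.47 to 0.13 for Dlk1. With the Ddx3y covariate Igf1 was at -0.0094 and Igfbp6 at -0.056, and with quantile normalization Igfbp5 was at 0.0023. The cause was not tested. With the replicate block, the adjusted p was 0.296 for Igfbp7 and 0.284 for Pappa2, and the block changed no call. Depth is unknown, so the precision of low values such as Pappa2 cannot be given.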

Other observations

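Imprinted growth genes, a group that includes Igf2, were described by their levels. Of 12 listed, 10 were in the table and tested, with 3 log2 differences above 0, 7 below and a median of -0.07. None had an adjusted p under 0.05 in limma and 0 had an unadjusted p under 0.05, against 13.1% of all rows tested. The groups did not overlap for 2, Slc38a4 and Gnas, both lower in the libraries labelled cKO, as were 11.8% of all rows. Cdkn1c, an inhibitor of the cell cycle, measured 114, 69.7 and 158 FPKM in control replicates 1, 2 and 3, and 92.7, 157 and 152 FPKM in the libraries labelled cKO. Mest measured 142, 110 and 199 FPKM in the controls and 111, 189 and 170 FPKM in the libraries labelled cKO. Both were highest in control replicate 3 and the libraries labelled cKO 2 and 3, as Igf2 was. This held for these 2 only of the 10 listed genes in the table. Dlk1, a regulator of adipocyte differentiation, measured 37.5, 30.5 and 71.2 FPKM in the controls and 29.1, 35.0 and 50.1 FPKM in the libraries labelled cKO, with control replicate 3 highest. H19 and Meg3 were not analysed here.

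The genes whose log2(FPKM + 1) correlated best with Igf2 over the 6 libraries were Srpx (Pearson r = 0.999), Spopl (0.996) and Cnbd2 (0.992), out of 11589 genes compared. For Igf1 they were Nfia (0.985), Egln2 (0.984) and 9130019O22Rik (0.983). These are descriptions over 6 points that mix both groups. Igfbp4 reached 0.827 with Igf2, rank 892 of those compared, and Igfbp3 reached 0.927 with Igf1, rank 75. The Igf2 mRNA-binding proteins Igf2bp1 and Igf2bp3 had log2 differences of -0.18 each and Igf2bp2, the most abundant of them, of 0.09, and none of the 3 Igf2bp genes passed at an adjusted or an unadjusted p under 0.05.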
